A study of Homo sapiens with 24 samples.

Results

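Transcript levels of MDM2, MDM4, USP7, TP63 and TP73 were examined across 4 human breast cancer cell lines in which the RNA-editing enzyme ADAR1, the product of the ADAR gene, had been lowered by a lentiviral short hairpin RNA. These genes were taken as 5 named members from the 37416 genes in the deposited tables, by matching each listed Ensembl identifier to its symbol, and all 5 passed the filter on low counts that left 21352 genes to test. The lines were BT549, HCC1806, MDAMB231 and MDAMB468, which the series describes as triple-negative. Cells of each line had received the hairpin against ADAR1 (shADAR1) or one with no target (shNT), and 3 biological replicates stood in each of the 8 groups of line and hairpin, 24 libraries in all. Both arms had been infected with lentivirus and selected with puromycin, so the cells of each group were selected populations and both arms share the infection and the drug. Which hairpin sequence was used, and whether the replicates came from separate infections, is not given in the sources used here, so the p-values below measure the spread between these libraries.

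MDM2 is a ubiquitin ligase that binds p53, blocks its activity and marks it for degradation. MDM4, also called MDMX, is its close relative with little ligase activity of its own, which binds p53 and pairs with MDM2. USP7 is a deubiquitinase that removes ubiquitin from both p53 and MDM2. p63 and p73, encoded by TP63 and TP73, are the relatives of p53: they share its DNA-binding domain, p63 maintains basal and squamous epithelium, and both genes have an upstream start and an internal start that yields a form lacking the first activation domain. MDM2 is itself a classical p53 target through an internal promoter, P2, in its first intron, while its upstream promoter, P1, is used without p53. Breast cancer lines of this kind generally carry mutant p53, and these 4 lines are known to. MDM2 and MDM4 have also been linked to lipid metabolism and ferroptosis, an iron-dependent cell death by lipid peroxidation, which is the question named by the series title.

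All 5 members had promoter windows in a RefSeq table on GRCh38.p14 (250 bases before to 50 bases after a transcript start). Of these windows 4 are shown, each as far as the first base that GENCODE 29 annotates as exon: both promoters of MDM2, to set the p53-responsive one beside the other, the promoter of its partner MDM4, and the one window of another member that held a p53-type site. Capitals mark matches to the p53 response element (20 letters, at most 3 mismatches to the consensus, no spacer, both strands) and to the AP-1 motif TGACTCA on either strand.
MDM2 P1, chr12:68807922-68808175, plus strand: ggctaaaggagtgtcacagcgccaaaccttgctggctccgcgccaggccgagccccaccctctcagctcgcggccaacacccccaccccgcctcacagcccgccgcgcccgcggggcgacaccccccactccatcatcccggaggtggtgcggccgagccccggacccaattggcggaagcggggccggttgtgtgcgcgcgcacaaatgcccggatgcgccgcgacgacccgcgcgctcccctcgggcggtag
MDM2 P2, chr12:68808767-68809001, plus strand: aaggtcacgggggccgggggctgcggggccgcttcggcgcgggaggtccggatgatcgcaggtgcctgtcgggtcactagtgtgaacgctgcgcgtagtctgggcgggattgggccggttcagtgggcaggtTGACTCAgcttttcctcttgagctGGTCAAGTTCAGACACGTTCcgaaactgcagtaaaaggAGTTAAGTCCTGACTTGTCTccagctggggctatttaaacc
MDM4, chr1:204516156-204516378, plus strand: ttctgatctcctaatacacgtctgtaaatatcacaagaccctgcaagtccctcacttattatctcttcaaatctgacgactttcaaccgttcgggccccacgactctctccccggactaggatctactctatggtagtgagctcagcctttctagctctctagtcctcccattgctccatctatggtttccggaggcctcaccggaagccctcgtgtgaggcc
TP73 internal start, chr1:3690422-3690671, plus strand: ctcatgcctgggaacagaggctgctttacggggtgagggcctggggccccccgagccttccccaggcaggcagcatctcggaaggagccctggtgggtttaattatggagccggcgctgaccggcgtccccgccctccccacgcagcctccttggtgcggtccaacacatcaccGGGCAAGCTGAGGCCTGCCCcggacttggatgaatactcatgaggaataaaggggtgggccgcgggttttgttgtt

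The MDM2 P2 window held 2 matches to the p53 element, at 68808923 to 68808942 with 2 mismatches and at 68808961 to 68808980 with 3 mismatches, and 1 AP-1 match at 68808899 to 68808905. Of 35116 such windows of all genes, 5.2% held a match to the p53 element, 0.313% held 2 or more, 4.95% held the AP-1 motif and 0.296% held both motifs. The MDM2 P1 window and the MDM4 window held neither motif. Of 3 TP73 windows, the one at the internal start shown held 1 match to the p53 element, at 3690596 to 3690615 with 2 mismatches. Another internal TP73 window, at 3697796 to 3698095, and the upstream one held neither motif. The single TP63 window, at the upstream start, and the 3 USP7 windows held neither motif. GENCODE 29 starts 5 of its 34 MDM2 transcripts in the P2 window and 3 in the P1 window. The deposited values are sums over a gene, so they do not separate transcripts of P1 from those of P2, or the 2 kinds of start of TP63 and TP73.

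ADAR1 edits double-stranded RNA, which in human transcripts is mostly formed by inverted repeats, so the transcripts of the members were searched for these. In the longest protein-coding GENCODE 29 transcript of MDM2 (12633 bases), 19 pairs of inverted repeats were found, counting alignments of at least 100 bases at 70% identity or more between the transcript and its own reverse complement. All 19 lay in the 10840 bases after the coding sequence. The longest MDM2 pair was an alignment of 322 bases at 80.1% identity, with 573 bases between its arms. The MDM4 transcript (10073 bases) held 13 pairs, all 13 after the coding sequence, and its longest pair was an alignment of 314 bases at 78.3% identity with 558 bases between the arms. None was found in the longest transcripts of USP7, TP63 and TP73, which are 5412, 4909 and 5188 bases long. Of 16340 protein-coding genes tested, 5.01% had such a pair. Among the 287 genes whose longest transcript was at least as long as that of MDM2 the share was 36.2%, and among the 635 at least as long as that of MDM4 it was 29.1%. Editing was not measured in these counts.

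Total counts ran from 10370645 to 97218217 a library. A library held 668 to 8526 counts for MDM2, and 6 to 171 for TP63 outside HCC1806. Levels are given as CPM, the share of a library's counts on its usual scale, adjusted by TMM, a normalisation that balances the libraries on most genes. With shADAR1 the targeted gene, ADAR, kept 21.8% of its shNT level in MDAMB231, 26.1% in BT549, 33.1% in HCC1806 and 37.1% in MDAMB468. The epithelial markers EPCAM and KRT19 were at 0 CPM in all shNT libraries of BT549, and CDH1 averaged 0.0952 CPM there. In shNT libraries of MDAMB231 the epithelial markers went both ways, with CDH1 at 0.0739 and EPCAM at 8.95 CPM but KRT19 at 282, KRT8 at 467 and KRT18 at 223 CPM. The mesenchymal marker VIM averaged 2309 CPM in BT549 and 4305 CPM in MDAMB231, against 7.96 CPM in HCC1806 and 8.15 CPM in MDAMB468. Of the receptor genes, ESR1 averaged 19 CPM in shNT libraries of HCC1806, 6.85 CPM in MDAMB468 and at most 0.462 CPM in the other lines. PGR stayed at or below 0.923 CPM and ERBB2 lay between 69.8 and 118 CPM in every library. Receptor protein was not measured. Among markers of other cell types, PTPRC and CD3E (leukocytes) stayed at or below 0.801 CPM and VWF (endothelium) at or below 0.833 CPM in every library. PECAM1 and CDH5, also of endothelium, averaged 4.51 CPM in shNT libraries of MDAMB231 and 1.2 CPM in those of MDAMB468. In shNT libraries of the other lines they averaged at most 0.403 and 0.0154 CPM. PDGFRB, of the same list, averaged 6.79 CPM in shNT libraries of MDAMB231 and at most 0.187 CPM in those of the other lines. CD68, known from macrophages, averaged 91 CPM in shNT libraries of MDAMB231, 48.7 CPM in HCC1806, 20.3 CPM in BT549 and 2.12 CPM in MDAMB468. The fibroblast and smooth muscle genes COL1A1 and ACTA2 averaged 4777 and 229 CPM in BT549 and at most 30.1 and 7.47 CPM in the other lines. On the average of the lines, none of 9 markers of breast lines and none of 8 tested markers of other cell types was called between the arms by edgeR, and 3 of each had an unadjusted p under 0.05 (DESeq2 called 2 and 0). Their median log2 changes were 0.36 and 0.23 against 0.02 over all genes, and with the replicate block 4 and 2 were called higher. Of all genes, edgeR called 2.96% on the average without the block and 13.2% with it, and DESeq2 called 1045 of 21352. The part of these markers in the changes of the members was not tested. A gene is called changed at a Benjamini-Hochberg adjusted p under 0.05 in edgeR's quasi-likelihood test over all 21352 genes. In BT549, HCC1806 and MDAMB231, same-numbered libraries of the 2 arms deviated together, so for these lines, the average and the difference between lines, a second fit that blocks on the replicate number is given where it changes a call. That fit blocks every line, so its average and its difference between lines also pair MDAMB468, whose numbers were not read as pairs.

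In control cells the members differed widely in abundance. By the deposited RPKM, which is per kilobase of the listed exon length, the order in shNT libraries of BT549, MDAMB231 and MDAMB468 was USP7, MDM4, MDM2, TP73 and TP63. In BT549 the mean RPKM was 18.8 ± 0.747 for USP7, 7.95 ± 0.968 for MDM4, 2.83 ± 0.692 for MDM2, 1.03 ± 0.192 for TP73 and 0.2 ± 0.0499 for TP63 (SD, n = 3). HCC1806 had another order, with USP7 at 34.4 ± 1.52, TP63 at 22 ± 3.88, MDM4 at 7.44 ± 0.893, TP73 at 5.97 ± 0.808 and MDM2 at 5.18 ± 0.461 (SD, n = 3). TP63 thus stood above 90.1% of the genes tested in HCC1806 by mean RPKM and above 19.1% to 25.7% of them in the other lines. The exon lengths are unions over all listed exons (13273 bases for MDM2, 6763 for TP73), so a gene expressed mainly as a short transcript is understated on this scale.

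Knockdown of ADAR1 was accompanied by more MDM2 transcript. MDM2 (ENSG00000135679, chromosome 12, 68808172 to 68850686, plus strand, 14 exon blocks) rose in BT549 and MDAMB231 and on the average of the 4 lines. In BT549 the shNT libraries were at 33.9, 34.5 and 47.9 CPM and the shADAR1 libraries at 71.5, 75.5 and 73.8 CPM. In MDAMB231 the shNT libraries were at 61.6, 60.7 and 75.6 CPM and the shADAR1 libraries at 144, 110 and 128 CPM. HCC1806 had 76.8, 66.8 and 74.6 CPM with shNT and 99.1, 87.5 and 96.5 CPM with shADAR1, and MDAMB468 had 69.3, 72 and 71.5 CPM against 112, 95.5 and 106 CPM. The arms did not overlap in any line, and the lowest shADAR1 library was above the highest shNT library each time. Such a gap in the same direction in all 4 lines was seen for 21 of the 21352 genes (0.0984%).

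**Figure D1:**
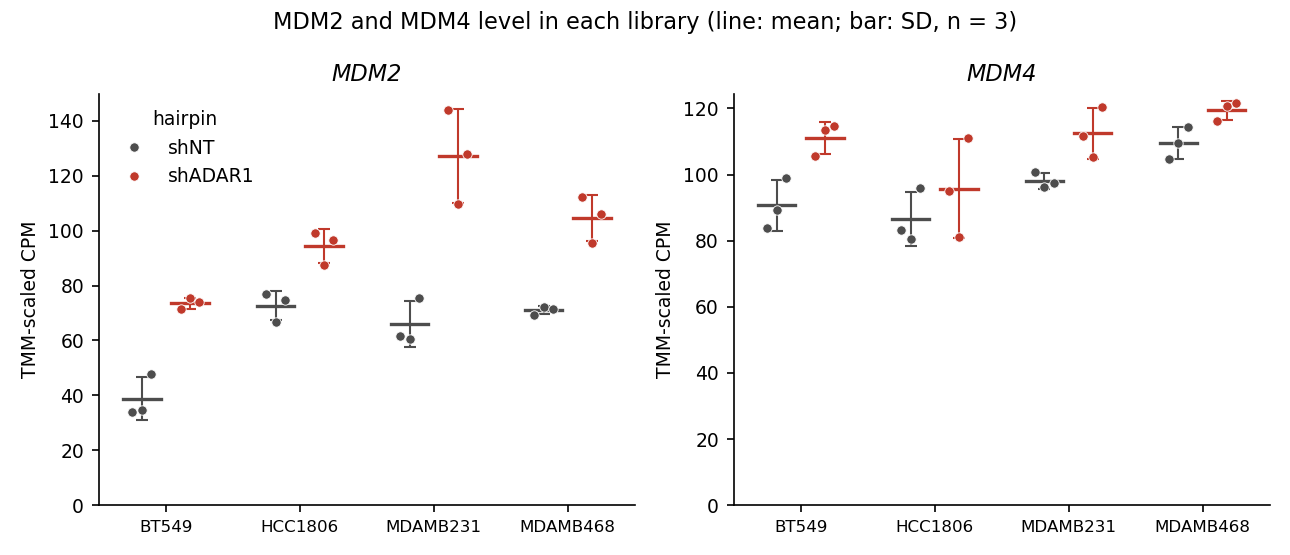
Level of MDM2 and MDM4 (TMM-scaled CPM, linear axis from 0) in each of the 24 libraries, by line, with shNT in grey and shADAR1 in red, the mean as a line and the SD (n = 3) as a bar. MDM2 is higher with shADAR1 in every line with no overlap, while the arms of MDM4 lie close and overlap in HCC1806.

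The fold over shNT for MDM2 was 1.9 in BT549 (log2 change 0.93, SE 0.121, edgeR adjusted p 0.000209) and 1.92 in MDAMB231 (0.94, SE 0.121, edgeR adjusted p 4.78e-05). Of all genes tested, 0.473% were called in BT549 and 2.01% in MDAMB231, and MDM2 ranked 11 and 38 by p in these lines. In HCC1806 the fold was 1.3 (log2 change 0.38, SE 0.12, 95% interval 0.14 to 0.61, not adjusted for the number of genes), with an edgeR adjusted p of 0.684 and 0.0468% of genes called. With the replicate block, MDM2 was called in HCC1806 (0.38, edgeR adjusted p 0.0199), where that fit called 2.1% of all genes. In MDAMB468 the fold was 1.47 (log2 change 0.56, SE 0.12, 95% interval 0.32 to 0.79), with an edgeR adjusted p of 0.132 and 0.0375% of genes called, and MDM2 ranked 19 by p there. MDAMB468 passed the threshold with DESeq2 (adjusted p 0.0149), in the edgeR fit of its own 6 libraries (adjusted p 0.0272) and without BT549 shNT replicate 3 (edgeR adjusted p 0.0296). The average of the lines put MDM2 higher by a log2 change of 0.70, or 1.63-fold (SE 0.0603, edgeR adjusted p 5.93e-08), and 2.96% of genes were called there.

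The MDM2 log2 changes of 0.93 and 0.94 belonged to BT549 and MDAMB231, and those of 0.38 and 0.56 to HCC1806 and MDAMB468. The call on a difference between the 4 lines depended on the block. Without it the joint test gave an F of 5.45 (edgeR adjusted p 0.646), with 0.0234% of genes called. With the replicate block the edgeR adjusted p was 0.0101, where 4.69% of genes were called. The remaining ADAR, given above, was lowest in MDAMB231 and BT549 too, and ADAR itself gave an edgeR adjusted p of 0.0129 with the block in the same joint test (0.622 without it). The line and the depth of the knockdown cannot be told apart over 4 lines.

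MDM4 (ENSG00000198625, chromosome 1, 204516379 to 204558120, plus strand, 13 exon blocks) moved less than MDM2. In BT549 its shNT libraries were at 83.8, 89.3 and 98.9 CPM and its shADAR1 libraries at 106, 113 and 115 CPM. In MDAMB231 the values were 101, 96.2 and 97.4 CPM with shNT and 112, 105 and 120 CPM with shADAR1. MDAMB468 had 105, 109 and 114 CPM against 116, 121 and 122 CPM, and HCC1806 had 83.3, 80.5 and 95.8 CPM against 94.9, 81.1 and 111 CPM. The arms were separate, shADAR1 above, in BT549, MDAMB231 and MDAMB468 and overlapped in HCC1806. Arms that do not overlap, in either direction, were found for 14.7% of genes in BT549, 14.2% in MDAMB231, 11% in MDAMB468 and 7.58% in HCC1806.

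No line called MDM4 without the block. BT549 had a log2 change of 0.29 (SE 0.0965, edgeR adjusted p 0.317) and MDAMB231 one of 0.20 (edgeR adjusted p 0.444), while HCC1806 stood at 0.15 and MDAMB468 at 0.12 (edgeR adjusted p 1 for both). With the replicate block MDM4 was called in BT549 (0.30, edgeR adjusted p 0.00174, 5.14% of genes called) and in MDAMB231 (0.20, edgeR adjusted p 0.0253, 11.4% of genes called). On the average of the lines MDM4 rose by 0.19, or 1.14-fold (SE 0.0484, edgeR adjusted p 0.0294), and with the block the edgeR adjusted p was 4.89e-05, where 13.2% of genes were called. This call was lost in 13 of the 24 fits that left out 1 library, with edgeR adjusted p-values of up to 0.0661 and log2 changes of 0.18 to 0.19. Those libraries were replicates 2 and 3 of shADAR1 and 1 and 2 of shNT in BT549, replicates 1 and 2 of shNT in HCC1806, replicate 3 of shADAR1 and replicates 2 and 3 of shNT in MDAMB231, and replicates 2 and 3 of shADAR1 and 1 and 2 of shNT in MDAMB468. MDM4 did not pass the joint test (edgeR adjusted p 1).

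**Figure D2:**
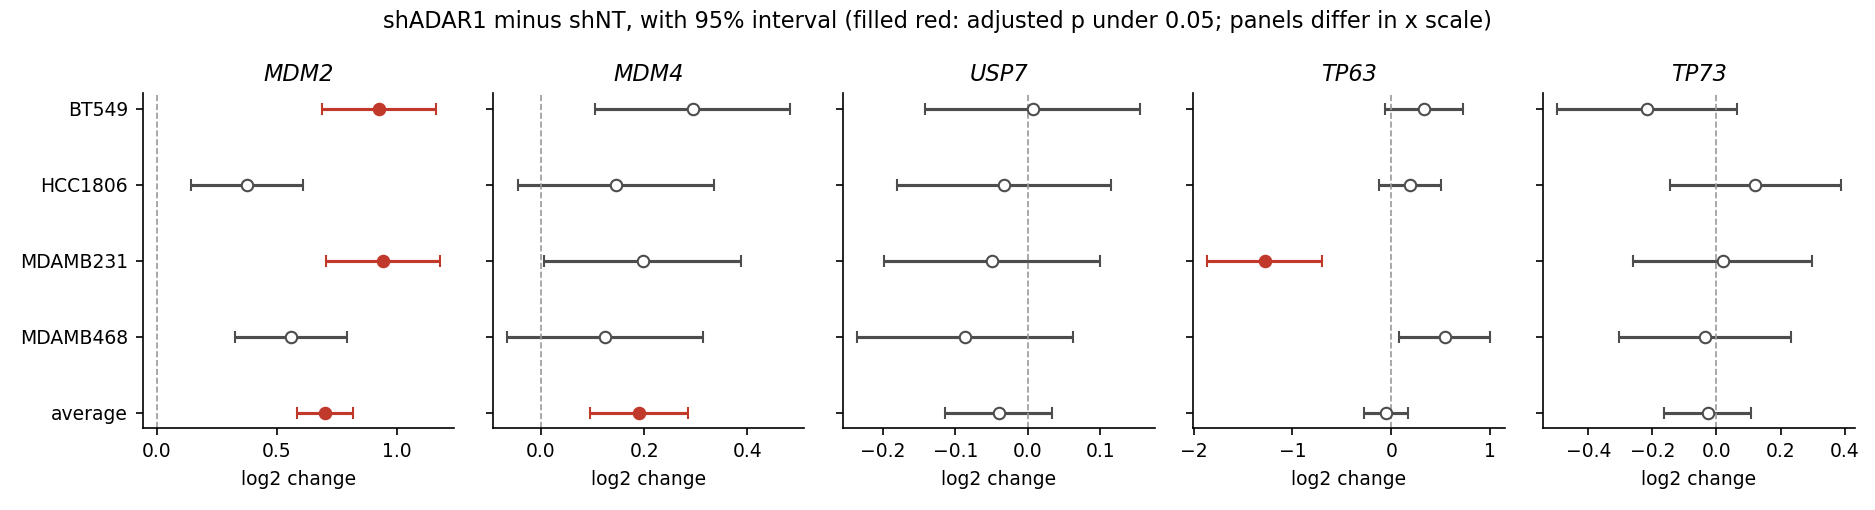
Log2 change of each member, shADAR1 minus shNT, in each line and on their average, with a 95% interval that is not adjusted for the number of genes. Filled red points passed an adjusted p of 0.05: MDM2 in BT549, MDAMB231 and the average, MDM4 in the average and TP63 in MDAMB231.

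Because p53 is bound by both proteins, the 2 transcripts were also set against each other within each library. The ratio of MDM2 to MDM4 counts per kilobase does not depend on scaling between libraries. In BT549 it was 0.335, 0.321 and 0.401 with shNT and 0.561, 0.553 and 0.535 with shADAR1. In MDAMB231 it was 0.507, 0.523 and 0.644 with shNT and 1.07, 0.866 and 0.88 with shADAR1, so that 1 library held more MDM2 than MDM4 per kilobase. In MDAMB468 the ratio was 0.548, 0.546 and 0.518 with shNT and 0.801, 0.657 and 0.722 with shADAR1. In these 3 lines the arms did not overlap, while in HCC1806 they did, with 0.764, 0.688 and 0.646 against 0.866, 0.894 and 0.72. The ratio rose 1.43-fold on the mean of the 4 lines (log2 0.52, exact permutation test within lines, 2-sided, p = 2.50e-05 over 160000 regroupings). Within a line, 3 libraries against 3 cannot give an exact p below 0.1, which BT549 (1.57-fold), MDAMB231 (1.68-fold) and MDAMB468 (1.35-fold) reached, while HCC1806 (1.18-fold) gave 0.2. These are 5 permutation tests of the same ratio, of which the one over all 4 lines was the planned result. The members themselves had been chosen with earlier results of these data known.

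**Figure D3:**
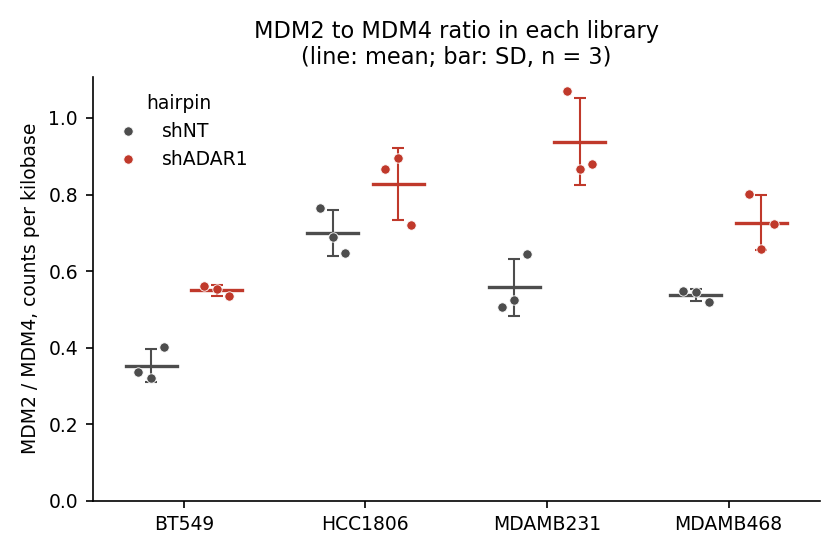
Ratio of MDM2 to MDM4 counts per kilobase (linear axis from 0) in each library, by line and hairpin, with the mean as a line and the SD (n = 3) as a bar. The shADAR1 libraries lie above the shNT libraries in BT549, MDAMB231 and MDAMB468, and the arms overlap in HCC1806.

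In control cells BT549 had the least MDM2, at 38.8 ± 7.89 CPM (SD, n = 3), against 72.7 ± 5.25 in HCC1806, 66 ± 8.36 in MDAMB231 and 70.9 ± 1.46 in MDAMB468. BT549 was exceeded by HCC1806 with a log2 difference of 0.91 (edgeR adjusted p 6.41e-07), by MDAMB231 with 0.77 (8.93e-06) and by MDAMB468 with 0.87 (1.20e-06). These 3 higher lines did not differ beyond their spread, with pairwise differences of -0.14 to 0.10 and edgeR adjusted p-values of 0.342 to 0.821. Calls between lines were common: of all genes, 63.5% differed between HCC1806 and BT549, 56.5% between MDAMB231 and BT549, 61% between MDAMB468 and BT549, 59% between MDAMB231 and HCC1806, 62.9% between MDAMB468 and HCC1806, and 61.8% between MDAMB468 and MDAMB231. With shADAR1 the MDM2 mean was 73.6 ± 2.02 CPM in BT549, close to the shNT level of the other lines. For MDM4 the shNT order was MDAMB468 (110 ± 4.86 CPM), MDAMB231 (98.1 ± 2.37), BT549 (90.7 ± 7.64) and HCC1806 (86.5 ± 8.15). Neighbours in that order did not differ beyond their spread, and MDAMB468 exceeded HCC1806 by 0.34 (edgeR adjusted p 0.00392) and BT549 by 0.27 (0.0177). The difference from BT549 was not called without BT549 shNT replicate 1 (0.21, edgeR adjusted p 0.103) or 2 (0.26, 0.0585), without MDAMB468 shNT replicate 3 (0.23, 0.0756) or without the filter on low counts (0.25, 0.0582).

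USP7 (ENSG00000187555, chromosome 16, 8892094 to 8964514, minus strand, 37 exon blocks) was not called in any line. Its shNT and shADAR1 means were 155 ± 6.24 and 156 ± 10.7 CPM in BT549, 290 ± 7.28 and 284 ± 19.8 CPM in HCC1806, 159 ± 10.2 and 154 ± 6.49 CPM in MDAMB231, and 151 ± 7.12 and 143 ± 5.53 CPM in MDAMB468 (SD, n = 3). The arms overlapped in every line. The average log2 change was -0.04, with a 95% interval of -0.11 to 0.03 (edgeR adjusted p 0.773). Between lines, USP7 stood out in HCC1806, which exceeded BT549 by 0.90 (edgeR adjusted p 3.93e-10). MDAMB231 was lower than HCC1806 by a log2 difference of -0.87 and MDAMB468 by -0.94 (edgeR adjusted p 1.13e-09 and 2.51e-10). The other 3 lines did not differ beyond their spread (edgeR adjusted p 0.424 to 0.739).

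**Figure D4:**
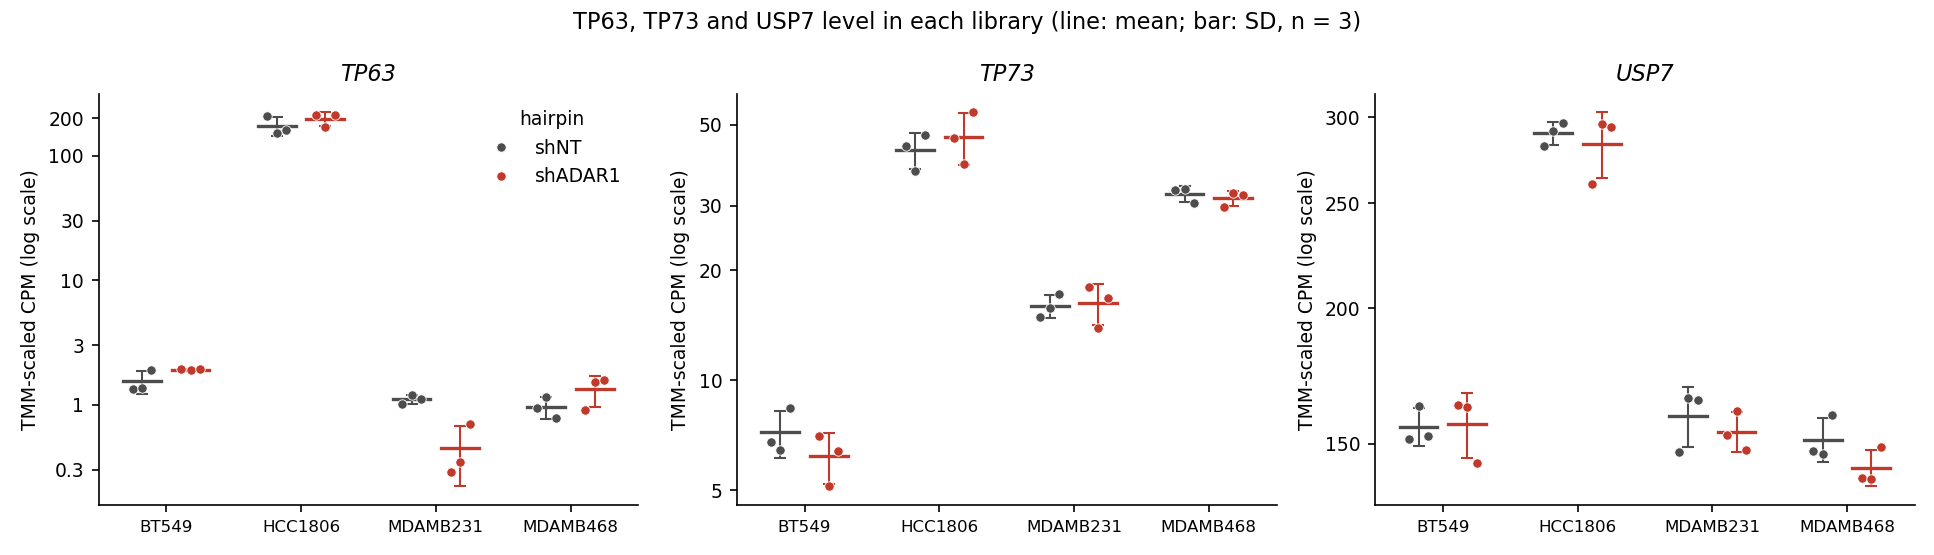
Level of TP63, TP73 and USP7 (TMM-scaled CPM, log axes with a scale of their own) in each library, by line and hairpin, with the mean as a line and the SD (n = 3) as a bar. TP63 is high in HCC1806 and near 1 CPM elsewhere, TP73 differs between lines while its arms overlap, and USP7 is highest in HCC1806.

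TP63 (ENSG00000073282, chromosome 3, 189631416 to 189897279, plus strand, 17 exon blocks) was abundant in HCC1806 only among these lines. There the shNT libraries were at 209, 152 and 161 CPM and the shADAR1 libraries at 213, 169 and 213 CPM, and the arms overlapped (log2 change 0.19, SE 0.159, edgeR adjusted p 1). With shNT, the level in HCC1806 was 114-fold that of BT549 (log2 difference 6.84, edgeR adjusted p 9.56e-18), and MDAMB231 stood at -7.26 and MDAMB468 at -7.50 against it. Among the low lines, BT549 was at 1.54 ± 0.321 CPM, MDAMB231 at 1.11 ± 0.0934 and MDAMB468 at 0.962 ± 0.192 (SD, n = 3). MDAMB468 was lower than BT549 (log2 difference -0.66, edgeR adjusted p 0.016), a call lost without BT549 shNT replicate 3 (-0.50, 0.0845) or MDAMB468 shNT replicate 3 (-0.51, 0.102). MDAMB231 did not differ from its neighbours in this order (edgeR adjusted p 0.137 and 0.44).

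In MDAMB231 the low TP63 signal fell further with shADAR1. The shNT libraries held 11, 54 and 50 counts (1.02, 1.2 and 1.11 CPM) and the shADAR1 libraries 6, 18 and 30 counts (0.287, 0.346 and 0.703 CPM), with no overlap. The log2 change was -1.28 (SE 0.296, edgeR adjusted p 0.0194). The call was lost without replicate 1 of shADAR1 (-1.14, edgeR adjusted p 0.105), replicate 2 of shADAR1 (-1.03, 0.124), replicate 2 of shNT (-1.21, 0.0999) or replicate 3 of shNT (-1.30, 0.0704) of that line, and in the edgeR fit of its own 6 libraries (adjusted p 0.343). In BT549 the values were 1.35, 1.36 and 1.91 CPM with shNT and 1.93, 1.89 and 1.93 CPM with shADAR1 (log2 change 0.33, edgeR adjusted p 0.937). MDAMB468 had 0.947, 1.16 and 0.778 CPM against 0.908, 1.53 and 1.57 CPM (0.54, edgeR adjusted p 1). For TP63 the joint F over the lines was 8.94 (edgeR adjusted p 0.201), and with the replicate block an edgeR adjusted p of 0.0129. It was also called by DESeq2 (adjusted p 0.00241) and by edgeR without the filter on low counts (adjusted p 0.0453).

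TP73 (ENSG00000078900, chromosome 1, 3652520 to 3736201, plus strand, 16 exon blocks) was not called in any line or on the average (log2 change -0.03, 95% interval -0.16 to 0.11, edgeR adjusted p 1). BT549 had 6.76, 6.43 and 8.4 CPM with shNT and 7.05, 5.12 and 6.41 CPM with shADAR1. HCC1806 had 43.8, 37.4 and 46.8 CPM against 45.9, 39.1 and 54.1 CPM, MDAMB231 had 14.9, 15.7 and 17.2 CPM against 18, 13.9 and 16.8 CPM, and MDAMB468 had 33.1, 33.3 and 30.5 CPM against 29.9, 32.6 and 32.1 CPM. The arms overlapped in all 4 lines. In shNT libraries the order was HCC1806, MDAMB468, MDAMB231 and BT549, and each neighbouring pair differed. MDAMB468 was lower than HCC1806 (log2 difference -0.40, edgeR adjusted p 0.0138), higher than MDAMB231 (1.01, 1.30e-06), and MDAMB231 was higher than BT549 (1.16, 3.20e-07). The first of these was lost without HCC1806 shNT replicate 3 (-0.34, edgeR adjusted p 0.0631) or MDAMB468 shNT replicate 3 (-0.33, 0.0818).

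Around TP63, 22 genes of squamous epithelium and p63 targets followed the lines. With shNT, 17 of the 22 had their highest mean in HCC1806 and 5 in MDAMB468. KRT6A, a keratin of activated squamous epithelium, averaged 1861 CPM in HCC1806 and 2.86 CPM in MDAMB468, and KRT5, the basal keratin, 1236 and 1203 CPM. ITGB4 and COL17A1, which anchor basal cells to the basement membrane, averaged 1294 and 908 CPM in HCC1806. In HCC1806 all 22 were called higher than in BT549, 20 of 22 higher than in MDAMB231, and 16 higher and 5 lower than in MDAMB468. Of all genes, 63.5%, 59% and 62.9% were called in these comparisons in either direction. Those called higher in HCC1806 were 7247, 6700 and 7198 of 21352. Median log2 differences of the list were 10.05, 7.39 and 3.06, against 0.08, 0.05 and 0.04 over all genes. KRT5, KRT17 (416 CPM) and DSC3 (71.7 CPM) were thus well expressed in MDAMB468, where TP63 averaged 0.962 CPM. With shADAR1 and without the block, none of the 22 was called by edgeR in any line or on the average, where 4 had an unadjusted p under 0.05. DESeq2 called 3 on the average, where it called 1045 of all 21352 genes. Among the 3 were KRT6A and SERPINB5, which averaged at most 0.0147 CPM in shNT libraries of BT549 and MDAMB231. With the replicate block 5 were called higher and 2 lower on the average, 3 higher and 0 lower in BT549, and 3 higher and 2 lower in MDAMB231. The block called 13.2% of all genes on the average, 5.14% in BT549 and 11.4% in MDAMB231. The list's median on the average was 0.15.

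The regulators of MDM2 and MDM4 comprised 25 genes, from the ribosomal proteins that bind MDM2 to the kinases and deubiquitinases that act on it. On the average 1 was called higher and 0 lower (median log2 change 0.03, against 0.02 over all genes), and 7 higher and 0 lower with the replicate block. For this and the lists that follow, 2.96% of all genes were called on the average without the block and 13.2% with it, so a single call in a list is near the share of all genes. The called gene was USP10, a deubiquitinase of p53, which rose by 0.18 on the average (SE 0.0412, edgeR adjusted p 0.0147). In MDAMB231 it rose by 0.32, from 94.1 ± 6.15 to 118 ± 9.36 CPM (SD, n = 3, edgeR adjusted p 0.0405), and that call was lost in 16 of the 24 fits that left out 1 library (log2 change 0.26 to 0.38), without the filter on low counts (edgeR adjusted p 0.146) and in the fit of that line's own libraries (edgeR adjusted p 0.246). CDKN2A, whose ARF product inhibits MDM2, averaged 253 CPM in BT549 shNT libraries and 78.8 CPM in those of MDAMB468. It was at 0 CPM in all libraries of HCC1806 and MDAMB231. Its count is a sum over the gene and does not single out ARF. The log2 change of CDKN2A was -0.13 in BT549 (edgeR adjusted p 0.991) and 0.09 in MDAMB468 (SE 0.0959, not called). This gene was named after its values were seen.

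Among 15 other ubiquitin ligases of p53, p63 and p73, 0 were called higher and 1 lower on the average (3 higher and 4 lower with the replicate block). RNF2, a Polycomb ligase, fell by 0.42 on the average (SE 0.0569, edgeR adjusted p 5.57e-05) and in MDAMB231 from 34.9 ± 1.44 to 19.5 ± 2.51 CPM (SD, n = 3, log2 change -0.83, edgeR adjusted p 0.000119). COP1, a ligase that degrades p53, rose in MDAMB231 from 31.5 ± 3.65 to 41.1 ± 3.05 CPM (SD, n = 3, 0.37, edgeR adjusted p 0.0212). That call was lost in 2 of the 24 fits that left out 1 library, without the filter (edgeR adjusted p 0.0976) and in the fit of that line's own 6 libraries (edgeR adjusted p 0.229). Of 14 cofactors of the family, 2 were called higher and 0 lower on the average (4 higher and 1 lower with the replicate block). The log2 changes were 0.23 for HIPK2, a kinase that phosphorylates p53 (SE 0.054, edgeR adjusted p 0.0142), and 0.33 for CABLES1 (SE 0.0675, edgeR adjusted p 0.00564). CABLES1 rose in BT549 from 7.93 ± 0.482 to 12.3 ± 1.8 CPM (SD, n = 3, 0.63, edgeR adjusted p 0.0252), which was lost in 5 of the 24 fits that left out 1 library and without the filter (edgeR adjusted p 0.0601).

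MDM2 is one of the best-known p53 targets, so 28 others were listed, of which 27 were tested. On the average 1 was called higher and 1 lower, with a median log2 change of 0.06 against 0.02 over all genes (7 higher and 3 lower with the replicate block). BBC3, which encodes the pro-apoptotic protein PUMA, rose by 0.44 (SE 0.0814, edgeR adjusted p 0.00206). It averaged 10 ± 1.81 and 13.6 ± 2.47 CPM in the shNT and shADAR1 arms of BT549, and 3.75 ± 0.166 and 5.44 ± 0.538 CPM in those of MDAMB468 (SD, n = 3). POLH, a DNA polymerase that copies past ultraviolet damage, fell by 0.32 on the average (SE 0.0498, edgeR adjusted p 0.000284). It went from 32.6 ± 1.35 to 22.7 ± 0.857 CPM in BT549 (-0.52, edgeR adjusted p 0.00955) and from 50.9 ± 2.89 to 33.5 ± 3.89 CPM in MDAMB231 (SD, n = 3, -0.60, edgeR adjusted p 0.000857). The BT549 call was lost in 4 of the 24 fits that left out 1 library and without the filter (edgeR adjusted p 0.0529). The other 25 of the 27 were not called on the average, and the activity of p53 was not measured.

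Of 14 USP7 substrates and partners, 0 were called higher and 1 lower on the average (0 higher and 3 lower with the replicate block). RNF168, a ligase of the DNA damage response, fell by 0.20 (SE 0.0469, edgeR adjusted p 0.0182), and the call was lost without the filter on low counts (-0.19, edgeR adjusted p 0.0599). Of 16 genes that tie MDM2 and MDM4 to ferroptosis and lipids, 15 were tested, and 0 were called higher and 2 lower on the average (2 higher and 3 lower with the replicate block). ACSL4, which loads polyunsaturated fatty acids for membrane lipids and promotes ferroptosis, fell by 0.40 (SE 0.0553, edgeR adjusted p 6.07e-05). It went from 156 ± 9.46 to 111 ± 4.5 CPM in BT549 (-0.49, edgeR adjusted p 0.0395) and from 151 ± 18.6 to 105 ± 3.2 CPM in MDAMB231 (SD, n = 3, -0.52, edgeR adjusted p 0.00911). Leaving out 1 library lost these calls in 7 and 2 of 24 fits. The call in BT549 was also lost without the filter (edgeR adjusted p 0.0546) and that in MDAMB231 in the fit of its own libraries (edgeR adjusted p 0.0844). PPARA, the fatty acid receptor through which MDM2 and MDM4 have been linked to ferroptosis, fell by 0.28 (SE 0.0683, edgeR adjusted p 0.0226), with the call lost in 6 of 24 such fits at edgeR adjusted p-values of up to 0.0569. In HCC1806 and MDAMB468, where 0.0468% and 0.0375% of all genes were called, none of the 132 tested genes of these 7 lists was called by edgeR without the block or by DESeq2, and 2 and 6 had an unadjusted edgeR p under 0.05. With the replicate block, which called 2.1% of all genes in HCC1806, 2 of the p53 targets were called higher there, BBC3 (0.44, edgeR adjusted p 0.0435) and GADD45A (0.31, edgeR adjusted p 0.0276), and no gene of the other 6 lists. In BT549, where the block called 5.14% of all genes, it called 2 regulators higher, 1 ligase lower, 4 cofactors higher, 3 p53 targets higher and 1 lower, 2 USP7 partners lower, and 2 ferroptosis and lipid genes higher and 2 lower. In MDAMB231, at 11.4% of all genes, it called 6 regulators higher, 2 ligases higher and 3 lower, 4 cofactors higher and 1 lower, 3 p53 targets higher and 4 lower, 2 USP7 partners lower, and 2 ferroptosis and lipid genes higher and 4 lower.

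**Figure D5:**
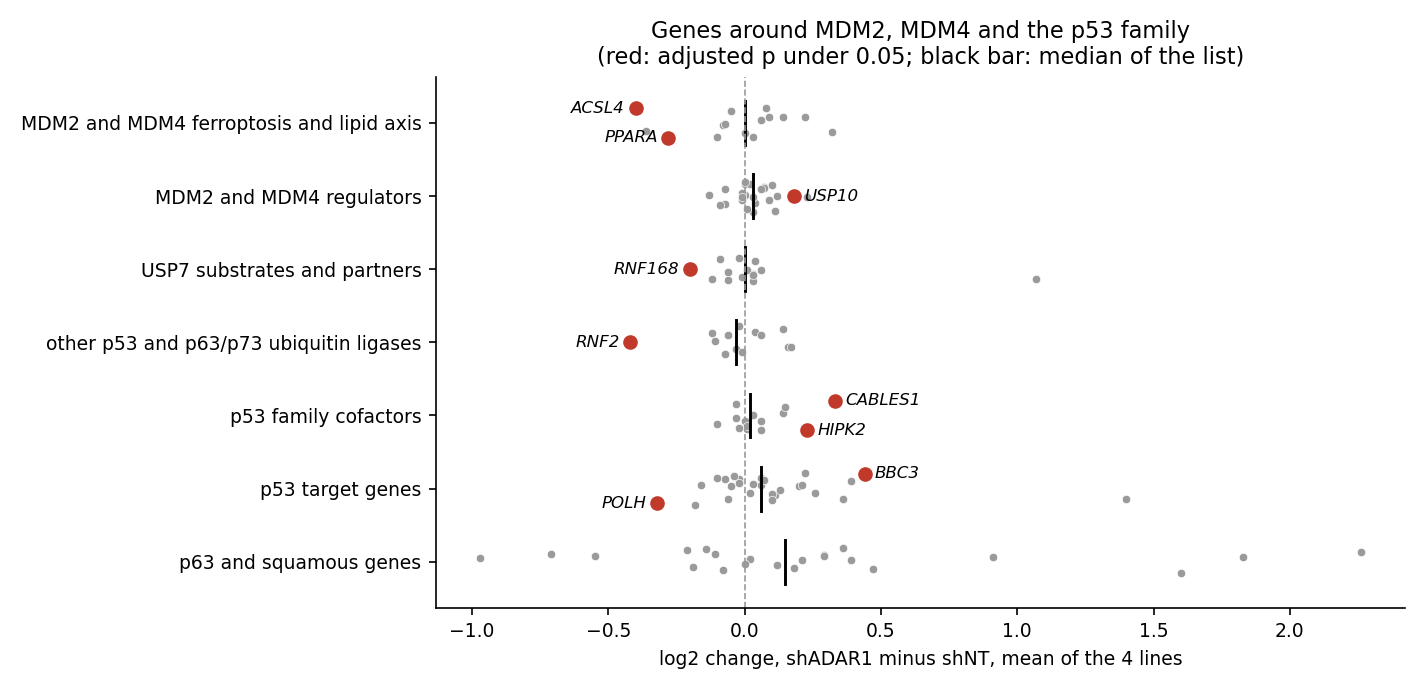
Log2 change, shADAR1 minus shNT averaged over the 4 lines, for each tested gene of 7 lists around the members, 1 point a gene, with the list's median as a black bar. Red points passed an adjusted p of 0.05: USP10, HIPK2, CABLES1 and BBC3 higher, and RNF2, RNF168, POLH, ACSL4 and PPARA lower.

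Genes beside the members were read for comparison. For each member the 2 nearest tested genes on either side with a mean of at least 1 CPM were read, 20 genes in all. Genes that overlap a member, such as WRAP73 at TP73 (37 CPM), were left out. Distances ran up to 1885689 bases, for BCL6 and TP63. None was called by edgeR in any line or on the average, where 2.96% of all genes were called, and at most 1 of the 20 had an unadjusted p under 0.05 in any of these comparisons. The neighbours of MDM2 were SLC35E3 and NUP107 at lower coordinates and CPSF6 and YEATS4 at higher ones, and their average log2 changes were 0.06, 0.05, 0.01 and 0.08, against 0.70 for MDM2. Those of MDM4 were PIK3C2B at 0.10 (SE 0.123), PPP1R15B at 0.11 (SE 0.0566), LRRN2 at 0.22 (SE 0.199) and NFASC at -0.23 (SE 0.286), with errors too wide to tell a change of the 0.19 seen for MDM4 from none. The nearer end of SLC35E3 lies 14208 bases from MDM2. The gene of carboxypeptidase M, on the opposite strand, shares 133 exon bases with MDM2 and averaged 8.63 CPM. Because the counting is not stated to use strand, reads in those bases cannot be assigned to one gene.

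Genes with the most similar pattern were ranked by Pearson's r of log2 CPM over the 24 libraries, among genes whose log2 CPM averaged 2 or more. These are descriptions, since the libraries share lines, arms and scaling. By level, MDM2 was most like CELF1 (r = 0.818), DDA1 (0.81) and SOCS5 (0.761), MDM4 like CFAP44 (0.87), MIGA1 (0.856) and ZNF680 (0.833), and USP7 like LSG1 (0.986), UBE2M (0.986) and CWC22 (0.984). TP63 was most like NCBP2 (0.984), IL20RB (0.981) and ADAP1 (0.98), and TP73 like MAL2 (0.986), RTKN (0.985) and TMEM184A (0.984). By deviations from the line mean, which leave the hairpin and the replicates, MDM2 was most like KATNAL1 (0.976), SS18 (0.953) and EIF4EBP2 (0.947), which lie on chromosomes 13, 18 and 10. MDM2 gave 0.778 with MDM4 and -0.924 with ADAR on this scale, and values of -0.284 with USP7, -0.194 with TP63 and 0.00639 with TP73.

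KATNAL1, a katanin-like microtubule-severing protein, had log2 changes of 1.14 in MDAMB231, 0.91 in BT549, 0.57 in HCC1806, 0.54 in MDAMB468 and 0.79 on the average (SE 0.067, edgeR adjusted p 4.71e-08). EIF4EBP2, a repressor of cap-dependent translation, rose by 0.54 on the average (edgeR adjusted p 1.12e-06) and SS18, a chromatin remodelling subunit, by 0.42 (edgeR adjusted p 3.94e-06). All 3 were called in BT549 and MDAMB231 and not in HCC1806 or MDAMB468. These genes, and those of the other members below, were picked because their deviations resemble the member's, hairpin difference included. A change like the member's thus follows from the choice and is no separate result. MDM4 by the same measure was most like SLC6A9 (0.87), MIGA1 (0.862) and BRWD1 (0.85), of which SLC6A9 (0.39, edgeR adjusted p 0.0136) and MIGA1 (0.31, edgeR adjusted p 0.00304) rose on the average. USP7 was most like CHMP2A (0.845), CTR9 (0.819) and RPL36AL (0.812), and TP73 like PCNT (0.768) and INPP5B (0.75), and none of these 5 was called in any line. For TP63 the 3 were TTC28 (0.817), CRYBG1 (0.79) and SLC29A3 (0.788), and TTC28 (-0.59, edgeR adjusted p 0.0334) and SLC29A3 (-0.75, edgeR adjusted p 0.049) fell in MDAMB231.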

How the data were processed

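The deposited tables give, for each library, a whole-number count per gene, made with tools that include, per the submitters' processing notes, STAR, featureCounts and edgeR. CPM and RPKM columns, deposited by the authors, equal the share of the library's total count and that share per kilobase of the listed exon length. The genome build, annotation and use of strand are not given in the sources used here. Of 37416 genes, 31357 had the same start and end as in GENCODE 29 on GRCh38, MDM2 not among them. Symbols came from a name table that matched 33972 genes.

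Counts of all 24 libraries were fitted with edgeR 4.0.16 in R 4.3.3 (filterByExpr over 8 groups, TMM factors 0.924 to 1.12, quasi-likelihood F test, 2-sided, Benjamini-Hochberg over 21352 genes). One coefficient stood for each group (common biological coefficient of variation 0.176). Contrasts were the 4 lines, their average, their joint difference and 6 pairs of shNT groups. CPM values are TMM-scaled, and SEs were derived from the fold change and F. The fits were tested on simulated counts. DESeq2 1.42.0, RLE and upper-quartile scaling, other filters, the replicate block, a line's own libraries, leaving out each library, and a table without mitochondrial or structural RNA were tried. Totals of 10370645 to 97218217 limit TP63 in 3 lines most, at 6 to 171 counts.

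Same-numbered libraries were read as pairs where every correlation of deviations from the group means exceeded 0.1, which held in BT549 (0.139, 0.158 and 0.25), HCC1806 (0.242, 0.332 and 0.443) and MDAMB231 (0.204, 0.348 and 0.149), but not in MDAMB468 (0.165, 0.166 and 0.0651). The labels number the replicates and name no pairs. Replicate 1 had the lowest total count in both arms of HCC1806, MDAMB231 and MDAMB468. The part of depth in these correlations was not tested.

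The members and the lists were chosen with earlier results of these data known. Named beside the members and ADAR were, by rule, up to 4 called genes of each list in the average and 2 in each line, 2 neighbours on either side and the 3 most similar genes on each scale. Some genes that the rule names are not reported here. Genes named beyond that were chosen after their values were seen.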

Additional observations from a re-analysis of the deposited data

How the results depend on the processing

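Direction and call of MDM2 in BT549, MDAMB231 and the average held under all alternatives run, and leaving out 1 library gave log2 changes of 0.841 to 1.107, 0.846 to 1.056 and 0.679 to 0.747. The MDM2 to MDM4 ratio change kept its call in every alternative, at 0.493 to 0.544 without 1 library, and 0.517 in same-numbered pairs (exact permutation p 0.000488). That p is the smallest the paired test can give, and the pairs include MDAMB468, whose numbers were not read as pairs. Where a call changed the cause was not tested. With the replicate block MDM2 was gained in HCC1806 (0.376) and MDAMB468 (0.554, where the numbers were not read as pairs), MDM4 in BT549 (0.296) and MDAMB231 (0.196), and the difference between lines for MDM2 (adjusted p 0.0101) and TP63 (0.0129), while TP73 in MDAMB231 turned to -0.008, and no other member's call changed. MDM2 in MDAMB468 was also gained with DESeq2 (0.555) and the line's own libraries (0.545), and lay at 0.500 to 0.622 without 1 library. Without the low-count filter MDM4 lost its average (0.195) and its MDAMB468 minus BT549 difference (0.254), and TP63 gained the difference between lines (adjusted p 0.0453, DESeq2 0.00241). The MDM4 difference of MDAMB231 minus HCC1806 was gained with upper-quartile scaling (0.245). TP63 in MDAMB231 lost its call in the line's own libraries (-1.288). Uncalled values near 0 changed sign: USP7 in BT549 with RLE (-0.010), upper-quartile scaling (-0.002), DESeq2 (-0.010), without structural RNA (-0.011) and in its own libraries (-0.008); USP7 in MDAMB468 minus BT549 with RLE (0.001), upper quartile (0.040), DESeq2 (0.001) and at least 10 counts in every library (0.053); and MDM2 in MDAMB468 minus HCC1806 with upper quartile (0.029) and at least 10 counts (0.025). TP63 has no value under the filter of 10 counts in every library, since some hold fewer.

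Without 1 library each, the ranges were 0.160 to 0.218 for MDM4 on the average, 0.125 to 0.256 for MDM4 in MDAMB231 minus HCC1806, 0.213 to 0.332 in MDAMB468 minus BT549, -0.101 to 0.006 for MDM2 in MDAMB468 minus HCC1806, -0.021 to 0.065 and -0.063 to 0.026 for USP7 in BT549 and HCC1806, -1.781 to -1.033 and -0.178 to 0.010 for TP63 in MDAMB231 and the average, -0.855 to -0.504 for TP63 in MDAMB468 minus BT549, -0.058 to 0.119 and -0.059 to 0.004 for TP73 in MDAMB231 and the average, and -0.495 to -0.328 for TP73 in MDAMB468 minus HCC1806.

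Numbers of genes called moved most. For BT549, 101 became 279 with DESeq2, 185 at 10 counts in every library, 1098 with the replicate block and 226 in its own libraries (61 to 122 without 1 library). HCC1806 went from 10 to 40 with DESeq2, 18 without the filter, 448 with the block and 0 in its own libraries (4 to 15 without 1 library). At an unadjusted p under 0.05 that last fit gave 426. MDAMB231 went from 429 to 786 with DESeq2, 2434 with the block and 117 in its own libraries (202 to 526), and MDAMB468 from 8 to 42, 354 and 21, with 16 at 10 counts (3 to 13). The average went from 632 to 1045 with DESeq2 and 2820 with the block, and the joint test from 5 to 123 with DESeq2, 22 without the filter, 25 at 10 counts and 1002 with the block (2 to 14). At 10 counts in every library, fewer genes were tested and the shNT pairs gave 8739 (HCC1806 minus BT549), 8309 (MDAMB231 minus HCC1806), 8537 (MDAMB468 minus BT549), 8781 (MDAMB468 minus HCC1806) and 8615 (MDAMB468 minus MDAMB231). The list genes called without the block (ACSL4, BBC3, CABLES1, COP1, HIPK2, POLH, PPARA, RNF168, RNF2 and USP10) kept their direction under the alternatives run for them. With the block in MDAMB468, whose numbers were not read as pairs, 354 of all 21352 genes were called. The lists had 1 p53 target higher there, 2 squamous genes higher, and 2 ferroptosis and lipid genes higher and 1 lower.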

Other observations

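Further genes around MDM2 passed the threshold in the edgeR fit with the replicate block and not in the fit without it. With the block 11.4% of all genes were called in MDAMB231, 5.14% in BT549 and 13.2% on the average. It called 6 regulators of MDM2 and MDM4 higher and 0 lower in MDAMB231. Ferroptosis and lipid genes went both ways, with 2 higher and 2 lower in BT549, 2 higher and 4 lower in MDAMB231, and 2 higher and 3 lower on the average. RYBP, a Polycomb protein that binds MDM2, had a log2 change of 0.45 in MDAMB231, from 32.3 ± 1.16 to 44.4 ± 4.17 CPM (SD, n = 3, edgeR adjusted p 0.0874, and 0.000181 with the block). SLC7A11, the cystine importer that protects from ferroptosis, had 0.52 in BT549 (edgeR adjusted p 0.524, and 0.000461 with the block) and 0.41 in MDAMB231 (0.444, and 0.00276 with the block). SREBF1, the activator of lipid synthesis, had 0.22 on the average (edgeR adjusted p 0.111, and 5.76e-05 with the block). These genes were chosen after their values were seen.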
